A study of Oryza sativa with 10 samples.

Results

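This is a comparison of gene expression between 2 rice (Oryza sativa) lines that had received no salt, S13 and S3, in libraries labelled root. It rests on 4 of the 10 libraries of the series, which are the control libraries S13 replicates 1 and 2 and S3 replicates 1 and 2. They were chosen by their titles. The labels call S13 salt tolerant and S3 salt susceptible, and give no pedigree, cultivar or allele for either line. All plants were 42 days old. Controls stayed at 0 mM NaCl throughout, and the other plants of each line spent the last 12 days in 140 mM NaCl after 30 days of normal growth (3 libraries a line). Salt libraries enter below as further libraries of the same lines, and they also entered the gene filter, scaling and estimate of spread.

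The root is where a rice plant meets salt in the soil solution, and it takes up, excludes or stores sodium through transporters and ion exchangers of the plasma membrane and the vacuole. Tolerant and susceptible lines can differ in such genes before any salt is applied, so a comparison of unstressed roots shows what the lines bring to the stress. Rice lines also differ in gene content and sequence, and RNA sequencing reads of every line are aligned here to a single reference assembly, IRGSP-1.0. A locus without reads in a line may be silent, missing or too divergent for its reads to align, and these cases cannot be told apart with counts.

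The control libraries held 22938524 to 24533997 counts and detected 30693 to 31829 of 38978 genes, with S3 replicate 2 detecting the fewest. Biological coefficients of variation were 25.2% within S13 controls and 32.7% within S3 controls, against 37.3% over all groups. The salt groups, at 46.4% in S13 and 35.3% in S3, entered the estimate of spread too. A p-value here is therefore set against the scatter of libraries within all 4 groups, not within the controls alone. Separate plants are not stated as the origin of a line's replicates, so that scatter may be technical. In whole root, fewer cells of a type and less RNA per cell cannot be told apart. Nuclear identifiers are not paired with gene names in the sources used here. The tissue therefore rests on the labels alone, and nuclear loci are described by identifier or by position on IRGSP-1.0, with no role.

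Of 28189 genes tested, 401 or 1.42% differed between the lines at an adjusted p under 0.05 in edgeR's quasi-likelihood test with Benjamini-Hochberg adjustment. In S13 213 were higher (0.756% of genes tested) and 188 were lower (0.667%). The loci higher in S13 held 0.436% and 0.414% of the counts of the S13 controls and 0.0331% and 0.0376% of the counts of the S3 controls. Conversely, the loci higher in S3 held 0.337% and 0.325% of the counts in S3 and 0.0530% and 0.0581% in S13. For each of the 401 both libraries of one line lay above both libraries of the other, a separation that 47% of all tested genes also showed. The median log2 fold change over all tested genes was -0.04.

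The 401 fell into 3 classes by their raw counts. In 200 of them both control libraries of a line had 0 counts, 117 in S3 and 83 in S13. At 98 loci each of the 4 control libraries had at least 10 counts, so that both lines expressed them, and 38 of these were higher in S13 and 60 lower. The other 103 had some counts in the lower line, 1 to 22 over its pair of libraries with a median of 5, and 58 of these were higher in S13 and 45 lower. The call rate differed widely with class. It was 44.7% of the 262 tested loci at 0 in S3, 53.2% of the 156 at 0 in S13, 3.05% of the 3379 loci between the classes and 0.402% of the 24382 loci with at least 10 counts in each control library. The rule that separates the classes uses the same counts as the test, so these rates are descriptions.

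**Figure D1:**
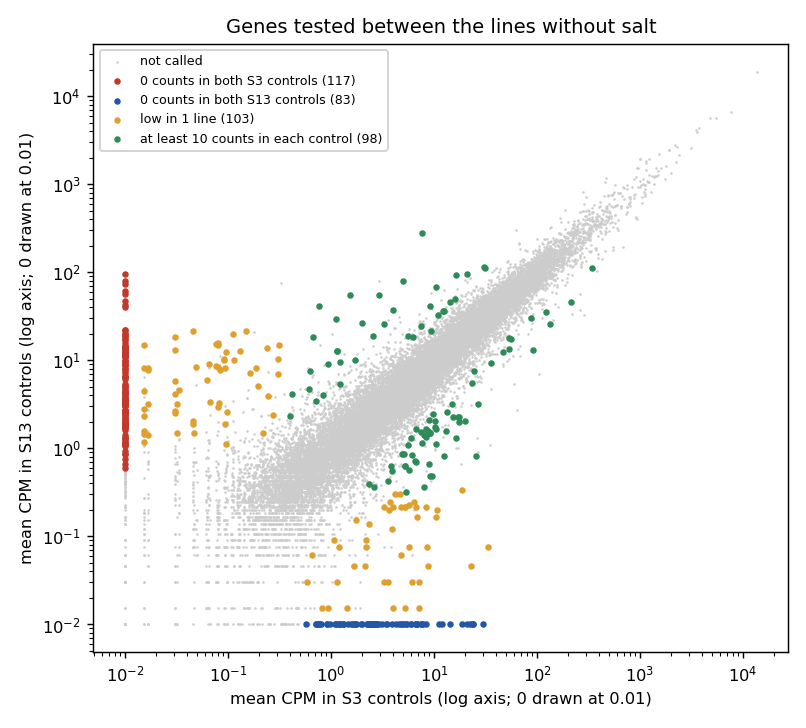
Mean CPM (counts scaled to library size with TMM factors) of each tested gene in the S3 controls (horizontal, log axis) and the S13 controls (vertical, log axis), with means of 0 drawn at 0.01; coloured points are the called genes by class and grey points the rest. The 117 loci at 0 in S3 line the left edge and reach 96.1 CPM, and the 83 loci at 0 in S13 line the lower edge and reach 29.8 CPM.

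Some of the called loci without reads in a line were well expressed in the other, though most stood below 5 CPM there. The median over all tested genes was 7.94 CPM in the higher line. Loci at 0 that were tested and not called were lower still, with medians of 0.550 CPM (at 0 in S3) and 0.258 CPM (at 0 in S13). Among the called loci at 0 in S3, S13 controls had a median of 3.85 CPM and a highest mean of 96.1, and 51 of the 117 had at least 5 CPM. Among those at 0 in S13, S3 controls had a median of 2.68 CPM and a highest mean of 29.8, and 27 of the 83 had at least 5 CPM. All 5 of these loci at 50 CPM or more belonged to S13. Without regard to the test, 203 genes had 0 counts in both S3 controls and at least 10 counts in both S13 controls, and 104 genes had the reverse. At a minimum of 100 counts these numbers were 70 and 33, and at 500 counts 15 and 5. The S13 controls were also the deeper libraries, with 24203925 and 24533997 counts against 22938524 and 23056573 in S3, and the part of depth in these numbers was not tested.

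The locus with the most reads in this class was Os12g0299300 on chromosome 12 (11904703 to 11907272). It had 2870 and 3420 counts in the S13 controls, or 87.7 and 104.5 CPM, and 0 in both S3 controls. A floor of 3 counts over the S3 controls is 0.0478 CPM, which puts S13 at least 2011-fold higher (adjusted p = 0.000145, edgeR's quasi-likelihood test). Under salt the S13 libraries were at 89.4, 74.0 and 84.0 CPM (2034, 1280 and 1663 counts) and the S3 libraries again at 0 counts. After TMM scaling the locus thus had a like level in all 5 S13 libraries, while its raw counts were lower under salt. It had no read in any S3 library. Such floors cover counting error only.

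Os06g0147100 on chromosome 6 (2457429 to 2458126) was next, with 96.1 and 62.2 CPM in the S13 controls and 0 counts in S3, at least 1657-fold higher (adjusted p = 0.00344, same test). Its S13 salt libraries stood at 241.5, 1067 and 252 CPM and its S3 salt libraries at 0 counts. Here the S13 libraries differed among themselves more than at the former locus, and no S3 library had a read.

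A further 4 loci at 0 in S3 had S13 control means that put them at least 981-fold to 1530-fold higher. Chromosome 2 held one from 16347717 to 16350263 that stood at 74.6 and 71.6 CPM in the S13 controls and at 10.6, 2.89 and 4.39 CPM in S13 under salt. Its S13 control and salt libraries did not overlap, and all S3 libraries had 0 counts. Another, on chromosome 6 from 1880537 to 1890909, stood at 62.0 and 60.5 CPM in the S13 controls, and that on chromosome 6 from 13947426 to 13951272 at 58.4 and 54.9 CPM. Both had 0 counts in all 5 S3 libraries. On chromosome 1, the locus from 23530089 to 23532422 had 47.5 and 46.3 CPM in the S13 controls, and it is the one among these with a read in S3, a single count in the first S3 salt library.

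Among loci at 0 in S13, Os07g0642100 on chromosome 7 (26719124 to 26727238) came first with 25.8 and 33.8 CPM in the S3 controls and 0 counts in S13. The S3 level was at least 650-fold higher (adjusted p = 0.000266, edgeR's quasi-likelihood test). S3 salt libraries had 10.9, 9.11 and 7.29 CPM, below both S3 controls, and S13 salt libraries had 0 counts. Os10g0212100 on chromosome 10 (8070371 to 8074802) had 21.6 and 26.2 CPM in the S3 controls, at least 521-fold higher (adjusted p = 0.000252, same test), and 17.3, 18.0 and 22.1 CPM in S3 under salt. It had no read in any S13 library.

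The next 4 loci of this kind had S3 levels at least 405-fold to 508-fold above the S13 floor, and none had a read in any of the 5 S13 libraries. One on chromosome 8 from 4817967 to 4820693 was at 23.5 and 23.1 CPM in the S3 controls and at 28.1, 22.5 and 18.0 CPM under salt, which overlap after TMM scaling. Its raw counts, 771 and 692 in the S3 controls and 598, 405 and 373 under salt, did not overlap. One on chromosome 9 from 10252139 to 10254682 was at 22.3 and 19.9 CPM in the S3 controls and at 68.2, 135.5 and 81.4 CPM under salt. Its salt libraries all lay above its controls. The others were at 24.6 and 20.1 CPM (chromosome 1, 20816985 to 20820444) and at 21.4 and 15.7 CPM (chromosome 9, 11576100 to 11576772). All 12 of these loci of both directions were called under each of the 19 other settings tried.

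**Figure D2:**
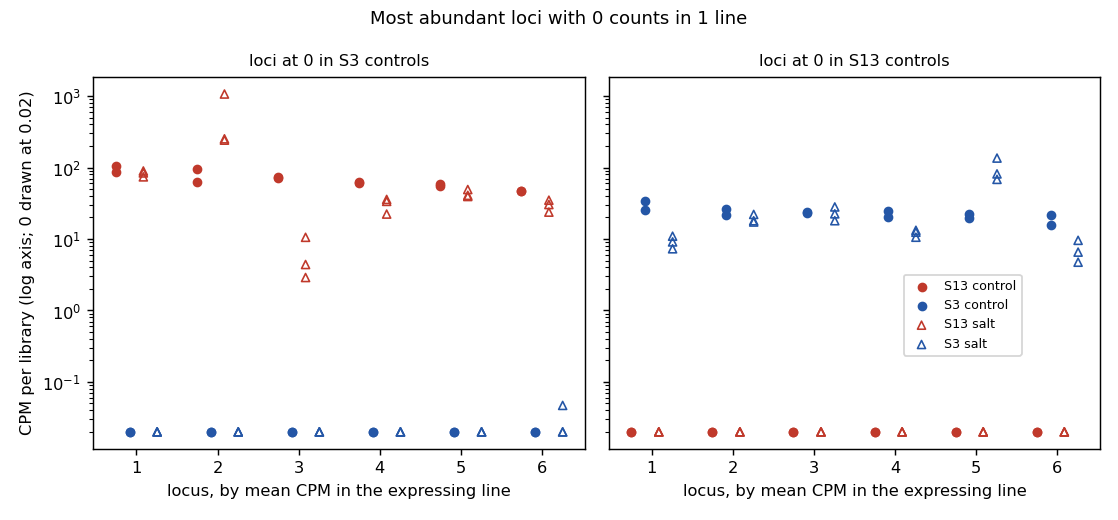
CPM in each library (log axis, 0 drawn at 0.02) of the 6 most abundant called loci at 0 in the S3 controls (left) and the 6 at 0 in the S13 controls (right), in the order of the text, with controls as filled circles, salt libraries as open triangles, S13 in red and S3 in blue. Points of the line without reads lie at the bottom except 1 S3 salt library with a single count at the sixth locus on the left.

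The salt libraries are not compared in this contrast, though they entered its gene filter, scaling and estimate of spread. Their counts bore on whether these loci are without reads beyond the pair of controls. Of the 117 loci at 0 in the S3 controls, 100 also had 0 counts in all 3 S3 salt libraries, and the other 17 had 1 to 8 counts over the 3 with a median of 2. Of the 83 loci at 0 in the S13 controls, 69 had 0 counts in all 3 S13 salt libraries and the other 14 had 1 to 11 counts with a median of 2. At 81 of the 100 and 46 of the 69 at 0 throughout, the other line had at least 10 counts in each of its salt libraries. None of the 117 or the 83 was at 0 in both lines under salt. In the test between the lines under salt, 106 of the 117 and 71 of the 83 passed in the same direction and none in the opposite one, where 1.80% of all tested genes were called higher and 1.77% lower in S13.

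Gene models of the loci at 0 were somewhat shorter and simpler than the rest. A single block of exon made up 41.9% of the called loci at 0 in S3 and 37.3% of those at 0 in S13, against 25.5% of the called loci with at least 10 counts in each control and 24.5% of all tested genes. The median exon length was 1449 and 1273 bases against 1682 and 1495. These shares are a description and were not tested. A gene counted on bases it shares with another cannot be told apart from it, since strand use in counting is not stated. Of the 401 called genes, 85 share exon bases with another gene (13 of the 117 at 0 in S3 and 14 of the 83 at 0 in S13). Among all 28189 tested genes 9065 do so, which is a larger share.

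The 98 loci expressed in both lines had log2 fold changes from 1.20 to 5.75 in size with a median of 2.60, while the median size over all tested genes was 0.34. Their level in the higher line had a median of 13.2 CPM, and 18 were at 50 CPM or more. The split of this class by direction moved with the setting. In the fit on control libraries alone 120 were higher in S13 and 110 lower. DESeq2 had 180 higher and 203 lower, and limma-voom 58 and 81. Without either S13 control more were higher in S13, and without either S3 control more were lower. With each of the 4 control libraries left out in turn, 21 of the 98 passed every time, against 79 of the 117 loci at 0 in S3, 48 of the 83 at 0 in S13 and 44 of the 103 in between. In those fits 1 line has a lone control library, which is assumed to vary like the other groups.

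The largest difference in this class was at Os01g0124100 (chromosome 1, 1345118 to 1346047), with 30.0 and 52.9 CPM in the S13 controls and 0.671 and 0.866 CPM in the S3 controls. Its log2 fold change was 5.75 ± 0.83 (SE; adjusted p = 0.00424, edgeR's quasi-likelihood test), and the call was lost without either S3 control library. Under salt it stood at 69.4, 128.8 and 30.7 CPM in S13 and at 1.74, 5.39 and 7.05 CPM in S3. The groups did not overlap in either condition.

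Os03g0734100 (chromosome 3, 30074926 to 30075707) was the most abundant of the loci higher in S13. It had 313.9 and 241.2 CPM in the S13 controls and 4.09 and 11.4 CPM in the S3 controls, a log2 fold change of 5.17 ± 0.62 (SE; adjusted p = 0.00146, same test), and it was called under all 19 other settings. Under salt the S13 libraries held 46.9, 34.5 and 94.4 CPM and the S3 libraries 14.3, 9.66 and 12.3 CPM. The line difference under salt was smaller at a log2 fold change of 2.28. Whether it differed from that without salt depended on the tool, with an adjusted p of 0.473 for the interaction in edgeR and 0.0233 in DESeq2.

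The next 4 largest differences towards S13 had log2 fold changes of 5.15, 4.76, 4.71 and 4.26. On chromosome 11, the locus from 17985037 to 17986258 had 55.6 and 53.5 CPM in the S13 controls against 0.733 and 2.33 in S3, and it was lost without the first S3 control. On chromosome 12, the locus from 12568930 to 12587004 overlaps exons of a neighbour and had 18.7 and 17.8 CPM against 0.702 and 0.633. Both kept a difference of the same direction under salt, with log2 fold changes of 5.61 and 3.13. On chromosome 6, the locus from 10588158 to 10589935 had 19.9 and 39.0 CPM against 0.916 and 1.33, and it was called in 11 of 19 other settings. Under salt it did not pass (log2 fold change 3.14, adjusted p = 0.0534 in edgeR). On chromosome 8, the locus from 5691120 to 5697423 had 56.1 and 55.7 CPM against 1.92 and 3.93. Under salt this last locus held 8.13, 3.47 and 5.0 CPM in S13 and 2.58, 1.83 and 2.56 CPM in S3 and did not pass (log2 fold change 1.25, adjusted p = 0.110 in edgeR), and the interaction had an adjusted p of 0.473 in edgeR and 0.00214 in DESeq2.

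Towards S3 the largest difference was at Os06g0505700 (chromosome 6, 17984211 to 17986882), with 26.9 and 24.6 CPM in the S3 controls and 1.31 and 0.306 CPM in the S13 controls. Its log2 fold change was -4.98 ± 0.58 (SE; adjusted p = 0.00134, edgeR's quasi-likelihood test). Os05g0172100 (chromosome 5, 4312572 to 4314358) had 8.91 and 7.03 CPM in S3 and 0.428 and 0.306 CPM in S13, a log2 fold change of -4.42 ± 0.46 (SE; adjusted p = 0.000727, same test). In raw counts the S13 controls held 43 and 10 at the former locus and 14 and 10 at the latter. The class limit is 10 counts, and with fewer a locus would fall in another class. Both loci were called in all 19 other settings, and both passed under salt with log2 fold changes of -5.69 and -4.18. Of the 4 that followed, with log2 fold changes from -4.27 to -3.75, the pair on chromosome 1 (15185168 to 15188301 and 12615286 to 12617245) was called in every other setting. The former of this pair overlaps exons of a neighbour. The S13 controls held 22 and 10 counts at the former and 10 and 11 at the latter. The locus on chromosome 6 from 16307602 to 16308189 (-3.75) was lost without any 1 of the 4 control libraries. The locus on chromosome 8 from 27055091 to 27059334 (-3.94) was at 17.8 and 7.16 CPM in S3 against 0.580 and 1.04 in S13, and was lost without the first control of either line. Under salt that locus did not pass (log2 fold change -1.41, adjusted p = 0.160 in edgeR).

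**Figure D3:**
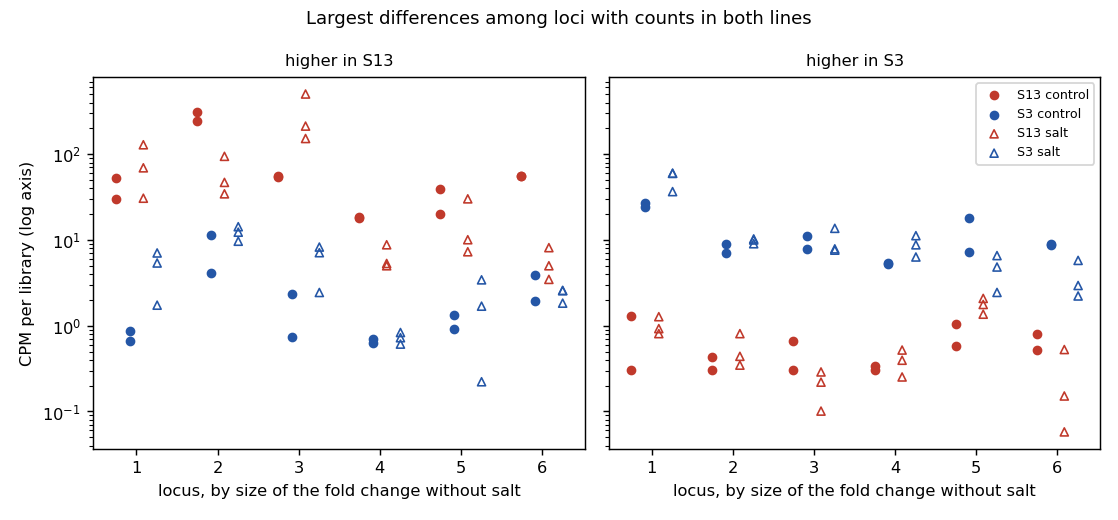
CPM in each library (log axis) of the 6 loci with the largest fold change towards S13 (left) and towards S3 (right) among loci with at least 10 counts in each control library, in the order of the text, with controls as filled circles, salt libraries as open triangles, S13 in red and S3 in blue. Filled circles of the lines are apart at every locus, while the triangles of the sixth locus on the left, at 3.47 to 8.13 CPM in S13 and 1.83 to 2.58 CPM in S3, come close. So do those of the fifth locus on the right, at 1.36 to 2.08 CPM in S13 and 2.44 to 6.57 CPM in S3.

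Loci of this class were also taken by abundance. Of the 4 most abundant loci towards S13, Os03g0734100 is given above. The locus on chromosome 2 from 19973187 to 19977396 had 115.5 and 117.4 CPM in the S13 controls and 27.0 and 34.0 CPM in S3, a log2 fold change of 1.93 ± 0.30 (SE). On chromosome 12, the locus from 11915468 to 11918594 had 107.1 and 116.5 CPM against 30.0 and 32.1, a log2 fold change of 1.85 ± 0.27 (SE). It lies close to Os12g0299300, the most abundant locus without reads in S3. Both were higher in S13 under salt too, with log2 fold changes of 2.93 and 2.93, and both calls were lost without either S3 control. On chromosome 5, the locus from 24357908 to 24361162 had 97.2 and 94.0 CPM against 18.7 and 22.9 without salt. Under salt S13 had 186.6, 159.1 and 173.0 CPM and S3 had 149.7, 135.5 and 95.7 CPM, and the line difference did not pass (log2 fold change 0.45, adjusted p = 0.377 in edgeR). The interaction at this locus had an adjusted p of 0.473 in edgeR and 0.00427 in DESeq2.

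The 4 most abundant loci towards S3 were led by one on chromosome 7 from 29008876 to 29009943. It had 336.1 and 348.4 CPM in the S3 controls and 115.0 and 108.6 CPM in the S13 controls, a log2 fold change of -1.61 ± 0.30 (SE; adjusted p = 0.0203, edgeR's quasi-likelihood test). Under salt the lines overlapped, with 292.7, 210.3 and 182.7 CPM in S13 and 234.3, 223.6 and 284.4 CPM in S3. The locus on chromosome 1 from 16536661 to 16542320 had 100 and 165.4 CPM in S3 and 21.7 and 30.7 CPM in S13, and under salt 23.6, 14.4 and 14.7 CPM in S3 and 22.2, 9.88 and 21.9 CPM in S13. At that locus, too, the lines overlapped under salt. For the loci on chromosomes 7 and 1 in turn, the interaction had an adjusted p of 0.473 and 0.473 in edgeR and of 0.0229 and 0.0332 in DESeq2. The others lay on chromosome 1 (39682842 to 39683433), with 149.8 and 275.2 CPM in S3 against 35.0 and 55.9 in S13, and on chromosome 2 (23909403 to 23913641), with 118.0 and 125.9 CPM against 35.1 and 36.0. Each of the 4 calls was lost without at least 3 of the control libraries in turn.

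Of the 98 loci expressed in both lines, 78 also passed between the lines under salt in the same direction, 19 did not pass, and 1 passed in the opposite direction. Over all classes 338 of the 401 or 84.3% passed in the same direction under salt, where 3.57% of tested genes were called. The 2 contrasts compare no library in common but share the gene filter, scaling and estimate of spread. The one locus with opposite calls lies on chromosome 6 from 29137112 to 29138074 and is named for this result after its values were seen. Without salt it had 0.550 and 1.19 CPM in S13 and 4.43 and 5.397 CPM in S3, a log2 fold change of -2.49 ± 0.39 (SE; adjusted p = 0.00753, edgeR's quasi-likelihood test). Under salt it had 18.9, 20.2 and 21.1 CPM in S13 and 5.12, 6.94 and 6.76 CPM in S3, a log2 fold change of 1.68 ± 0.30 (SE; adjusted p = 0.0108, same test). S3 had 4.43 to 6.94 CPM in all 5 libraries, while S13 was below it without salt and above it with salt. The interaction had an adjusted p of 0.125 in edgeR and 2.08e-12 in DESeq2, and the call without salt was lost without the first S13 control, without the second S3 control and in the fit on control libraries alone.

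**Figure D4:**
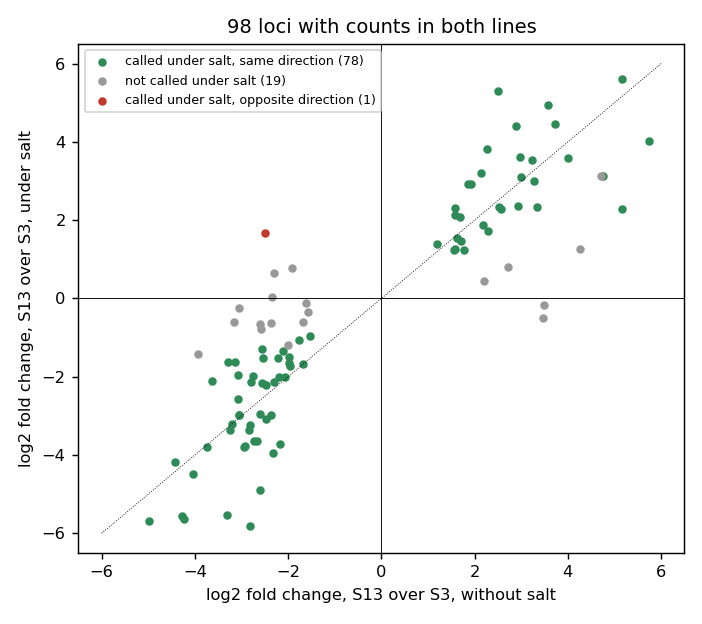
Log2 fold change of S13 over S3 without salt (horizontal) and under salt (vertical) for the 98 called loci with at least 10 counts in each control library; the dotted line marks equal values. The 78 loci that passed in the same direction under salt lie in the lower left and upper right, and 1 locus lies at -2.49 without and 1.68 with salt.

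Over all tested genes, 0 had a line difference that differed between salt and control in edgeR, with 2435 at an unadjusted p under 0.05. DESeq2 called 142 and limma-voom 0.

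Called loci were unevenly spread over the chromosomes. Counting 1 gene per set of overlapping genes, 366 of 24246 nuclear loci or 1.51% were called. The share was highest on chromosomes 11 (34 of 1220, 2.79%) and 6 (51 of 1981, 2.57%) and lowest on chromosomes 7 (10 of 1809, 0.553%) and 3 (27 of 3230, 0.836%). Chromosome 1 held 27 called loci that were expressed in both lines, among 70 called in all. On chromosome 10 all 16 called loci were at 0 in 1 line. On chromosome 12, 17 of 19 were higher in S13. These shares are given as a description, because neighbouring loci are not independent.

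**Figure D5:**
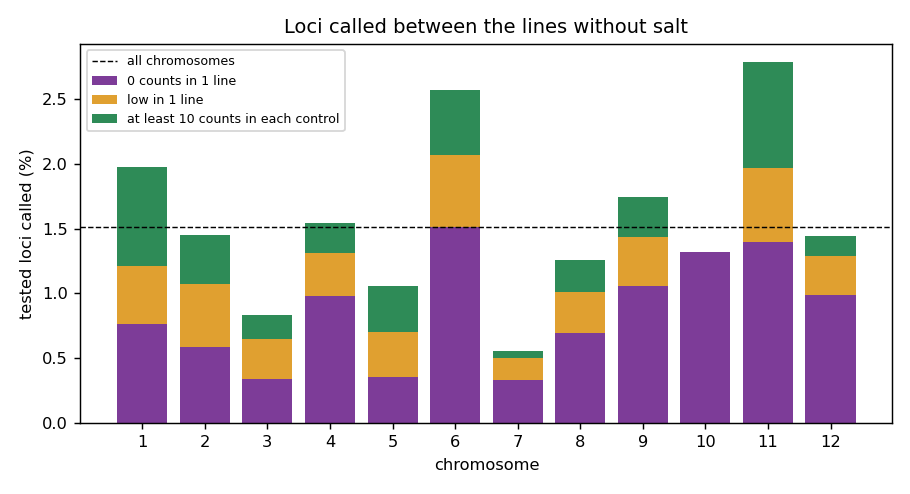
Percentage of tested loci (1 per set of overlapping genes) called between the lines without salt on each of the 12 chromosomes, stacked by class; the dashed line is the 1.51% of all chromosomes. Chromosome 10 has called loci at 0 counts in 1 line and no other class, and chromosomes 11 and 6 reach 2.79% and 2.57%.

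Of the 366 called loci, 95 lay in 39 runs of adjacent tested loci called in the same direction, and 8 runs held 3 or more. The pair of runs with 5 loci both favoured S13. The one on chromosome 3 from 295403 to 337243 spans 41.8 kb. Its first locus (295403 to 297898) had 19.0 and 21.3 CPM in the S13 controls with 3 and 4 counts in the S3 controls. Next to last, the locus from 321593 to 324469 had 20.4 and 22.4 CPM with 0 and 9 counts, and the other three had 0 counts in S3 and 1.56 to 3.39 CPM in S13. A pair of these (309311 to 314505 and 313806 to 315321) share exon bases, so their reads are partly the same. All 5 passed under salt.

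The other run of 5 loci covers 11.9 kb of chromosome 6, from 2446226 to 2458126, and ends with Os06g0147100. Next to it the locus from 2453481 to 2454046 had 17.2 and 13.2 CPM in the S13 controls with 5 and 0 counts in S3. The locus from 2449205 to 2449822 had 46.8 and 33.1 CPM with 0 counts in S3, and it stood at 272.1, 755.3 and 215.1 CPM in S13 under salt. The loci from 2450210 to 2451669 and from 2446226 to 2447357 were low, with 3.91 and 3.18 CPM and with 1.31 and 1.22 CPM, and had 0 counts in all S3 libraries. Reads of S13 thus covered 5 neighbouring loci of which the S3 controls held 5 counts in all.

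There were 5 runs of 4 loci. The longest, on chromosome 12 from 12449549 to 12587004, spans 137.5 kb and favoured S13. It held 3 loci at 0 in S3, at 2.93 and 3.94, at 1.89 and 2.29 and at 20.1 and 14.4 CPM in the S13 controls, and 1 expressed in both lines, given above. Runs on chromosome 2 (6508874 to 6538109) and chromosome 11 (531045 to 538198) also favoured S13, and the former consisted of loci at 0 in S3 with up to 42.8 CPM in S13. Runs on chromosome 1 (20746733 to 20820444) and chromosome 9 (11530868 to 11576925) favoured S3, with 4 and 3 loci at 0 in S13. The run of 3 loci lies on chromosome 11 from 25276091 to 25293951, all at 0 in S3.

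Some single megabases held several called loci of more than 1 class and of both directions. Those with at least 6 called loci were kept, so they were picked by the calls themselves and their shares are descriptions. Over all nuclear loci 1.51% were called. Among the megabases kept, the share was highest on chromosome 12 from 12000001 to 13000000, with 8 of 36 called and 7 of these higher in S13. Of 46 loci tested on chromosome 1 from 20000001 to 21000000, 9 were called, of which 7 were higher in S3 and 6 were at 0 in 1 line. On chromosome 9 from 11000001 to 12000000, 8 of 37 were called, 4 in each direction, and all 8 passed in the same direction under salt. On chromosome 4 from 18000001 to 19000000, 8 of 58 were called, 7 of them at 0 in 1 line and 7 higher in S13.

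No organelle gene was called. Of 129 tested plastid and mitochondrial genes 0 passed in edgeR's quasi-likelihood test, 0 had an unadjusted p under 0.05, DESeq2 called 0 and limma-voom 0. Over all tested genes the called share was 1.42% in edgeR and 3% in DESeq2, so 129 genes at that share would hold few calls. The share of all tested genes at an unadjusted p under 0.05 is not given here. The 15 plastid genes for photosystem subunits had a median log2 fold change of 0.16 and a range of -0.43 to 0.49. The most abundant was psbA, which encodes the D1 protein of photosystem II, at 99.7 and 36.4 CPM in the S13 controls and 74.2 and 67.9 CPM in S3. The S13 libraries lay on either side of both S3 libraries. In the plastid ATP synthase, atpA (the alpha subunit) was at 112.9 and 56.1 CPM in S13 and at 62.9 and 43.9 CPM in S3, which also overlap. The 22 plastid ribosomal protein genes had a median of 0.17, the 4 of the plastid RNA polymerase -0.02, the 4 of the plastid ATP synthase -0.43, and the 10 of the cytochrome and NADH complexes 0.29. Among 13 mitochondrial genes of the respiratory chain and ATP synthase the median was -0.27, and atp9, for a membrane subunit of the ATP synthase, came nearest to the threshold with 1.53 and 1.19 CPM in S13 against 3.36 and 1.83 CPM in S3 (log2 fold change -0.93 ± 0.45, SE; edgeR adjusted p = 0.629). The 7 mitochondrial ribosomal protein genes had a median of -0.24 and the 3 of cytochrome c maturation 0.83, at group means of 0.129 to 0.649 CPM. Plastid counts were 0.156% to 0.189% and mitochondrial counts 0.0335% to 0.0467% of each control library, with the lines overlapping. Of 239 tested noncoding RNA genes with Ensembl identifiers, 1 was called in edgeR, where 1.42% of all tested genes were.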

How the data were processed

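The authors deposited raw counts per gene for each library, not normalized, with gene coordinates and exon length, per the file headers. FastQC, Trimmomatic, HISAT2, featureCounts and DESeq2 with build IRGSP-1.0 are named in the submitters' processing notes; the sources used here state no versions, settings or strand use. Groups came from the titles.

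The main test was run with edgeR 4.0.16 (R 4.3.3). Its filterByExpr, given the groups, left 28189 of 38978 genes. TMM factors scaled library totals and were 1.31 to 1.42 in controls and 0.729 to 0.922 in salt libraries. Equal counts at like library totals thus give a higher CPM in a salt library than in a control. The quasi-likelihood fit took all 10 libraries, a mean for each of 4 groups and no replicate block. Contrasts were S13 against S3 without salt, the same under salt, and their difference. A gene was called when its p, adjusted by Benjamini-Hochberg over all genes tested, was under 0.05. CPM values are TMM-scaled. A floor, used for every lower bound of a fold, is 3 counts over both control libraries of a line (0.0458 CPM in S13, 0.0478 in S3). On simulated counts with 200 of 28189 genes changed between the controls, the test recovered 0.5% of 2-fold, 19% of 4-fold and 68% of 8-fold changes. It made 1, 1 and 9 false calls in turn.

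The classes are 0 counts in both controls of a line, at least 10 counts in each control, and the rest. Named loci, taken as 1 gene per overlapping set (overlap of 0.5 or more of the shorter one's exon bases), are the 6 most abundant at 0 in each line (at least 5 CPM in each library of the other), the 6 largest fold changes and the 4 most abundant in each direction of the second class (at least 5 CPM in the higher line), the 3 longest runs, and up to 4 genes of each organelle list. At most 2 identifiers are printed for each direction of a class, the rest by position. Comparison, classes and lists were chosen with earlier results of these data known. The reference gene table matched 1 of 37849 nuclear identifiers and 0 of 43 members of the planned lists of salt transporters, aquaporins, dehydrins and root markers, so those lists were not used. Alternatives used DESeq2 1.42.0 and limma 3.58.1 (voom).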

Additional observations from a re-analysis of the deposited data

Results flagged for a closer look

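The locus on chromosome 6 from 29137112 to 29138074 stood out because its line difference had opposite directions without and with salt. The difference of the log2 fold changes was 4.17, with all S13 libraries below all S3 libraries without salt and above them with salt. The adjusted p of that difference was 0.125 in edgeR's quasi-likelihood test and 2.08e-12 in DESeq2.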

How the results depend on the processing

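Of 811 values for 43 named loci under 19 other settings, 764 stayed past the threshold, 47 missed it and 0 changed direction. The 401 calls became 846 with DESeq2, 246 with at least 5 CPM in 2 libraries and 239 at an adjusted p under 0.01; of the 401, DESeq2 shared 399 and limma-voom 380. Without a single library the count ran from 231 (without the first S3 control; 246 without the second, 255 without the first S13 control) to 506 (without the second S13 salt library). The 200 calls at 0 counts in 1 line became 95 with the 5 CPM filter. The 98 calls with at least 10 counts in each control became 230 in the fit on control libraries alone and 383 with DESeq2, and ran from 40 to 157 without a single library (40 without the first and 47 without the second S3 control, 41 and 44 without the first and second S13 control, 157 without the second S13 salt library). The split of these 98, 38 higher and 60 lower, was 120 and 110 with control libraries alone, 180 and 203 with DESeq2 and 58 and 81 with limma-voom. It turned towards S13 without either S13 control and not without either S3 control. Repeats under salt were counted among the calls of each setting, 338 of 401 in the main test and 559 of 846 with DESeq2. The repeated share was therefore smaller with DESeq2, though the count was larger. Without a single library the share moved either way. The 338 calls repeated under salt became 559 with DESeq2 and ran from 208 (without the second S3 control; 213 without the first) to 393 (without the second S13 salt library). The 0 genes of the interaction became 142 with DESeq2 and ran from 0 to 9 without a single library. No organelle gene was called under DESeq2, library totals, the replicate block or without any library. The cause of these changes was not tested. Control libraries of equal replicate number shared only a number (correlation of deviations 0.0511); with a replicate block 338 genes were called, 308 of them among the 401. Depth limits what can be seen, since 0 counts allow a level of up to 3 counts. Changes of 2-fold were rarely recovered in simulated counts with the depth, spread and library numbers of these data. The part of each in that recovery was not tested.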
